A study of Vachellia cornigera with 24 samples.

Results

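Extrafloral nectaries of the bullhorn acacia (Acacia cornigera, also named Vachellia cornigera) collected at noon were compared with nectaries collected at 9 am, gene by gene. The comparison used 6 of the 24 RNA-seq libraries of the series, 3 per time, and every gene with a mean of at least 10 normalised counts over all libraries entered the test, which left 12264 of 12650 genes. Nectaries came from the field in Mexico. The labels name no ant treatment and no agent for either time, and they give no genotype, age or sampling day for single samples. Each library was a pool of nectaries from several plants, so that a library averages plants and holds every cell type of the gland. Genes are listed by the closest Arabidopsis thaliana locus, and the roles given here are those known for the Arabidopsis genes.

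An extrafloral nectary secretes sugar outside the flower and so feeds the ants that guard the tree. In nectaries studied in other plants, starch and phloem sucrose supply the sugar, the transporter SWEET9 releases sucrose from the secretory cells, and cell wall invertase splits it outside them. The circadian clock, a loop of transcription factors that repress each other in turn through the day, sets the time at which genes for photosynthesis, light signalling and sugar use are transcribed in leaves.

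The nectary genes were present in every library: SWEET9 stood between 2338 and 134932 normalised counts, the cell wall invertase CWINV4 between 9260 and 24536, and YAB5, a YABBY transcription factor, between 220 and 464. CRC, the YABBY factor that specifies floral nectaries in Arabidopsis, was not analysed here. Normalised counts summed to 21084266 to 23895145 per 9 am library and to 21502670 to 23560801 per noon library, and how many reads a unit stands for is unknown. The 3 libraries labelled 9 am were unlike each other. On the log2 scale and across genes, any pair of them correlated at 0.915, whereas sample 1 correlated at 0.966 with 3 pm sample 3, sample 2 at 0.976 with the 2 pm library and sample 3 at 0.971 with 3 am sample 1. With the noon libraries, 9 am sample 1 correlated at 0.919 to 0.928, sample 2 at 0.914 to 0.917 and sample 3 at 0.887 to 0.89. Samples 1 and 2 were thus about as close to noon as to the other 9 am libraries. The labels were used as given, and whether any libraries were exchanged cannot be told from these values. The noon libraries correlated with each other at 0.989 to 0.994, and noon samples 1 and 3 were nearly identical. These values do not settle if that pair came from separate plants, so noon may hold 2 independent libraries in place of 3. The median SD of a gene over libraries was 0.43 at 9 am and 0.10 at noon on the log2 scale. The shared estimate of spread used in the test lies between these values. In the sentences below, the 3 values of a group are normalised counts in the order of samples 1, 2 and 3.

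Between 9 am and noon the test called 1516 of 12264 genes (12.4%; limma, adjusted p under 0.05), of which 1022 were higher at noon (8.33% of genes tested) and 494 were lower (4.03%). The median change over all genes tested was 0.21 on the log2 scale. Further scaling of the libraries by median of ratios moved it to 0.01 and left 345 genes higher and 697 lower, so that the share of calls that were higher went from 67.4% to 33.1%. With quantile normalisation 52.2% of 1639 calls were higher. The larger number of rises thus depends on the scaling, and rises of genes are best read against the shift of 0.21. The count also rested on single libraries. Without 9 am sample 3 it was 140, without 9 am sample 1 it was 2595, and without noon samples 1, 2 or 3 it was 219, 220 or 188. With the near-identical noon pair averaged as 1 library the test called 189 genes.

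Because the mean of 9 am averages unlike libraries, the noon mean was set against each 9 am library on its own. A gene was said to hold when it was called, the groups did not overlap, and the noon mean of log2(value + 1) was at least 2-fold away from each of the 3 libraries in the same direction. Without the test and the distance, the groups of 39.1% of all genes tested did not overlap, with noon above 9 am for 29.2% and below it for 9.95%. Of the called genes, 353 held. They were 138 rises (1.13% of genes tested, 13.5% of called rises) and 215 falls (1.75% of genes tested, 43.5% of called falls). Just inside the limit stood AT4G39800, myo-inositol-1-phosphate synthase 1, at 8780, 7256 and 25140 at 9 am and 3578, 3673 and 3617 at noon. Just outside it stood AT5G51560, a leucine-rich repeat kinase, at 327, 723 and 455 at 9 am and 1343, 1531 and 1447 at noon. Of the called rises 276 were not 2-fold away from any 9 am library, against 50 of the called falls. The distance was unequal between libraries: the noon mean was at least 2-fold higher than 9 am sample 3 for 2318 genes (18.9%), than sample 1 for 1355 (11%) and than sample 2 for 936 (7.63%).

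**Figure D1:**
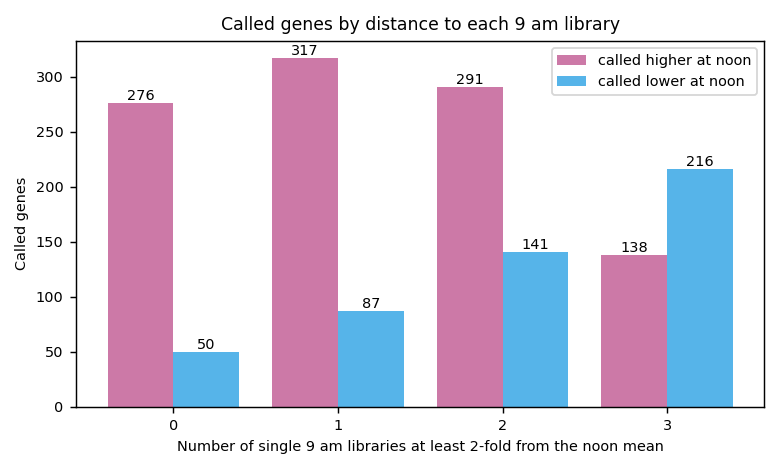
Called genes (y axis, number of genes) by how many of the 3 single 9 am libraries lay at least 2-fold from the noon mean in the direction of the call (x axis), for genes higher and lower at noon. Of the falls, 216 were 2-fold away from all 3 libraries, and of the rises 138 were, although there were more rises than falls in all.

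A stricter group kept its call in each of the 6 fits that left out a 9 am or noon library and with the noon pair as 1 library. It held 109 genes, of which 89 also held against each 9 am library, 81 of them falls and 8 rises. Among the genes named below, those in this group are said to be called in every one of these 7 fits. The other called genes lost the call in at least 1 of them. In a further fit, of the 6 libraries alone, 102 of the 109 were called. The 7 that were not are AT3G12320, AT5G15250, AT5G06980, AT2G46670, AT4G18800, SWEET9 and TPPF. Of the 353 genes that held, 100 were called without 9 am sample 3, 318 without sample 1 and 311 without sample 2, and 136 to 154 were called without a noon library.

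ELIP1 and several light signalling genes were among the falls that held. ELIP1 (AT3G22840), an early light-induced protein that binds chlorophyll and protects the thylakoid in strong light, stood at 3681, 9008 and 12790 at 9 am and at 198, 245 and 182 at noon. The groups did not overlap, and the lowest 9 am library was 17.7-fold above the noon mean. The change was -5.18 ± 0.53 (SE) on the log2 scale (limma, adjusted p = 9.21e-05), and it was called in every one of the 7 fits. AT2G05620, proton gradient regulation 5, which takes part in cyclic electron flow around photosystem I, stood at 767, 982 and 2916 at 9 am and 63, 74 and 65 at noon (change -4.25 ± 0.56, adjusted p = 0.00125). AT5G24120, sigma factor E, a plastid transcription factor, stood at 1991, 1610 and 2938 at 9 am and 536, 644 and 551 at noon (change -1.87 ± 0.27, adjusted p = 0.00171). Both were called in every one of the 7 fits.

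Of 25 light signalling genes tested 7 fell and 1 rose, beside 4.03% and 8.33% of all genes, and the list had a median change of -0.48 against 0.21 for all genes. Of the falls 6 held, and 5 of the falls were called without 9 am sample 3. ELIP1, given above, is a member of this list and is included in each of these counts of falls. BBX31, a B-box factor, stood at 349, 63 and 622 at 9 am and at 1, 5 and 5 at noon (change -5.85 ± 1.08, adjusted p = 0.00596). BBX32, another B-box factor, which dampens light responses in Arabidopsis seedlings, went from 322, 452 and 2153 to 25, 49 and 56 (change -4.02 ± 0.55, adjusted p = 0.00143). PIF4, a phytochrome-interacting factor that promotes growth in shade and warmth, stood at 327, 388 and 1193 at 9 am and 93, 62 and 89 at noon (change -2.72 ± 0.45, adjusted p = 0.00329). BBX24, a repressor of light responses, was at 1743, 2940 and 5710 at 9 am and 684, 806 and 628 at noon. BBX31, BBX32, PIF4 and BBX24 were called in every one of the 7 fits, while BBX19 held and BBX22 did not. The rise was CRY2, a blue light receptor, which stood at 3354, 2863 and 2788 at 9 am and at 4717, 5419 and 4779 at noon (change 0.73 ± 0.17, adjusted p = 0.0171).

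The B-box family was counted after its values were seen. Of 17 genes described as B-box or CONSTANS-like, 8 fell and 3 rose, beside 4.03% and 8.33% of all genes. Of these, 7 of the falls and 1 of the rises held, beside 1.75% and 1.13% of all genes. The family overlaps the light signalling list: at least BBX31, BBX32 and BBX24 are counted in both. AT5G54470, a B-box gene, stood at 7106, 6995 and 5209 at 9 am and 379, 473 and 426 at noon, so that its 9 am libraries were alike (change -3.91 ± 0.63, adjusted p = 0.00297). AT5G57660, CONSTANS-like 5, was at 4413, 5683 and 11312 at 9 am and 598, 618 and 617 at noon (change -3.42 ± 0.46, adjusted p = 0.00125). AT1G25440, a B-box gene with a CCT domain, ran the other way, from 555, 350 and 124 to 2166, 2189 and 2071 (change 2.88 ± 0.59, adjusted p = 0.0102). The 2 falls were called in every one of the 7 fits.

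**Figure D2:**
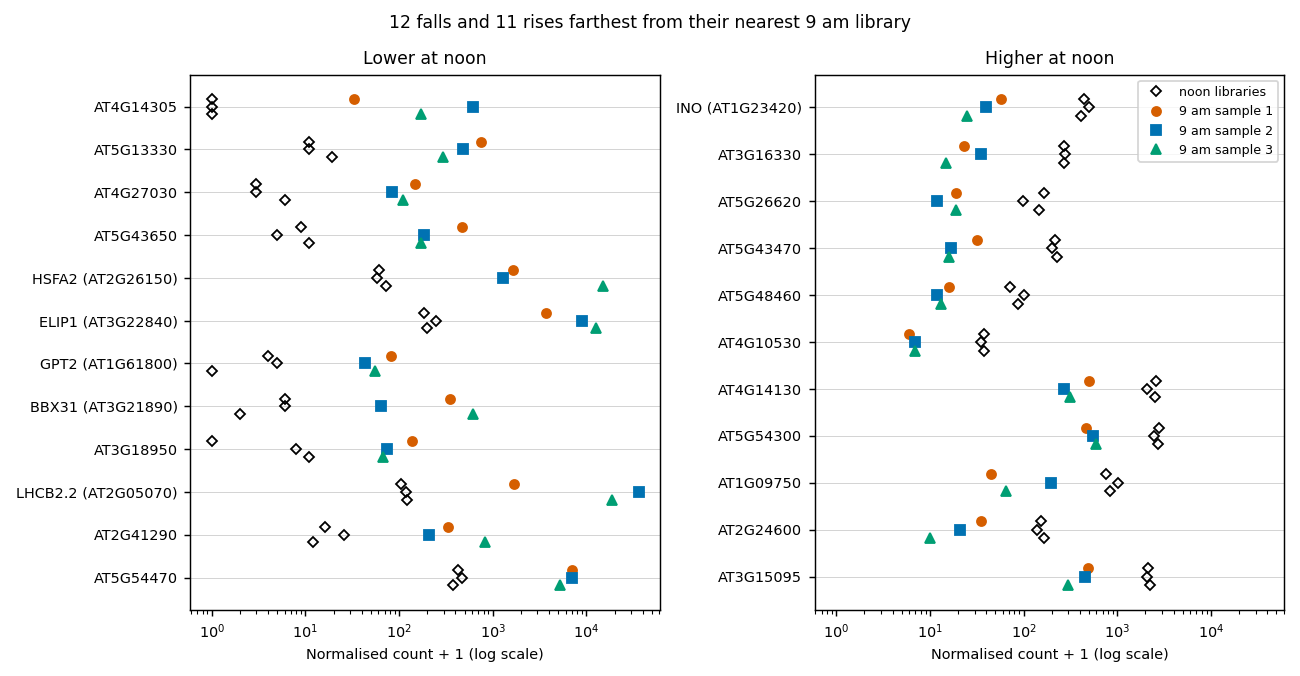
Normalised counts plus 1 (x axis, log scale) of the 12 falls and 11 of the 12 rises that lay farthest from their nearest 9 am library, with each 9 am library as its own symbol and the 3 noon libraries as open diamonds. The genes were chosen for this gap: noon ELIP1 values sit at 182 to 245 with all 9 am values at 3681 or above, and noon INO values sit at 410 to 502 with all 9 am values at 56 or below.

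Of 32 genes of the light-harvesting and photosystem list 15 fell and 0 rose, beside 4.03% and 8.33% of all genes, and the median change was -1.17. The 8 falls that held were all antenna proteins, which bind chlorophyll around the photosystems, and they lay below the 3 libraries of 9 am by very unequal factors. LHCB2.2, of the photosystem II antenna, stood at 1686, 36124 and 18598 at 9 am and at 122, 119 and 104 at noon (change -6.49 ± 1.19, adjusted p = 0.00596). LHCA4, of the photosystem I antenna, stood at 842, 11288 and 6778 at 9 am and at 122, 94 and 106 at noon (change -5.22 ± 0.88, adjusted p = 0.00329). In both, 9 am sample 1 was the lowest 9 am library and still 14.6-fold and 7.83-fold above the noon mean. LHCB5 was at 1541, 11723 and 12210 at 9 am and at 420, 358 and 418 at noon, and LHCA3 was at 1202, 8271 and 5880 at 9 am and 372, 456 and 384 at noon. These 4 genes were called in every one of the 7 fits, whereas LHCB3, LHCB6, LHCA1 and LHCA2 held but lost the call in at least 1 fit.

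The other 7 falls of the list did not hold. They were subunits and partners of the photosystems themselves, and in each 9 am sample 1 lay within 2-fold of the noon mean. PSBO1, of the oxygen-evolving complex, stood at 11021, 18109 and 13430 at 9 am and at 8765, 9272 and 8446 at noon (change -0.66 ± 0.19, adjusted p = 0.0393). PSAD1, of photosystem I, stood at 3108, 11192 and 5913 at 9 am and 2474, 2962 and 2547 at noon (change -1.15 ± 0.33, adjusted p = 0.0341). PSBS, which switches the antenna to heat dissipation, was called in every one of the 7 fits at 3602, 6439 and 6262 against 2229, 2510 and 2134 (change -1.20 ± 0.22, adjusted p = 0.00529). The median distance of the list from noon was -0.15 for 9 am sample 1, -2.13 for sample 2 and -1.19 for sample 3. The list had 27 falls without sample 1, 8 without sample 2 and 5 without sample 3. Summed over the list, levels were 77145, 291738 and 170877 at 9 am and 62854 to 69133 at noon. In these pooled glands fewer green cells and less RNA per green cell cannot be told apart, here and for every cell type below.

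Of 12 chlorophyll synthesis genes 4 fell and 0 rose, beside 4.03% and 8.33% of all genes, with a median change of -0.68. Against 9 am sample 1 alone the median was -0.03, and 2 genes were at least 2-fold higher at noon. CAO, which makes chlorophyll b, stood at 1314, 1143 and 1891 at 9 am and at 180, 162 and 151 at noon (change -3.10 ± 0.45, adjusted p = 0.00171). CHLH, a subunit of magnesium chelatase, stood at 2556, 3852 and 3512 at 9 am and 887, 1014 and 899 at noon (change -1.81 ± 0.26, adjusted p = 0.00186). CRD1, a subunit of the cyclase, stood at 1905, 7700 and 6668 at 9 am and 714, 819 and 721 at noon (change -2.62 ± 0.46, adjusted p = 0.0046). All 3 held and were called in every one of the 7 fits, and in CAO the 9 am libraries were within a narrow range. CHLP, which makes the phytol chain, fell without holding. None of 6 carbon fixation genes was called in either direction in limma, and their median change was -0.23.

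Of 8 morning clock genes tested 3 fell and 0 rose, beside 4.03% and 8.33% of all genes, and the levels of these 3 differed widely among the 9 am libraries. LHY, a dawn-phased repressor of the clock, stood at 20730, 2525 and 83100 at 9 am and at 987, 1034 and 1112 at noon (change -3.97 ± 0.84, adjusted p = 0.0121). LNK1, a coactivator of clock genes, stood at 1125, 5753 and 12933 at 9 am and 310, 290 and 275 at noon (change -3.90 ± 0.84, adjusted p = 0.0124). LNK2, its close relative, stood at 580, 4541 and 8677 at 9 am and at 228, 258 and 224 at noon (change -3.58 ± 1.01, adjusted p = 0.0331). These 3 held, and the nearest library differed: sample 2 for LHY and sample 1 for LNK1 and LNK2. The other 5 were not called, and the list median was -1.15. Against 9 am sample 2 alone, 2 of the 8 were at least 2-fold higher at noon. RVE1, a relative of LHY, was at 21296, 2698 and 6974 at 9 am and at 8664, 10074 and 8979 at noon, where noon lay between the 9 am libraries.

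Among 9 afternoon and evening clock genes 3 rose and 1 fell, beside 8.33% and 4.03% of all genes. Their median change of 0.20 was close to the 0.21 of all genes. TOC1, the evening repressor of LHY, stood at 3773, 2205 and 569 at 9 am and at 4586, 5051 and 4782 at noon (change 1.52 ± 0.43, adjusted p = 0.0329). ELF3, a scaffold of the evening complex, stood at 3066, 1982 and 1133 at 9 am and at 3979, 4913 and 4077 at noon (change 1.18 ± 0.29, adjusted p = 0.0189). ELF4, its partner, stood at 498, 1153 and 108 at 9 am and at 1458, 1769 and 1397 at noon. These rises did not hold, since 9 am sample 1 or 2 lay within 2-fold of noon. PRR5, an afternoon repressor, fell and held, from 1780, 7054 and 8305 to 787, 1010 and 810 (change -2.45 ± 0.61, adjusted p = 0.0195). GI, which times flowering and light input, was not called, with 4776, 22516 and 7007 at 9 am and 9675, 12578 and 9432 at noon (change 0.20 ± 0.65, adjusted p = 0.849). Without 9 am sample 3 none of the clock genes of either list was called by limma, as against 3 morning falls without sample 1 and 3 without sample 2. With the noon pair as 1 library none was called either. LHY had an adjusted p of 0.0634 at most over the 6 fits without a library.

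**Figure D3:**
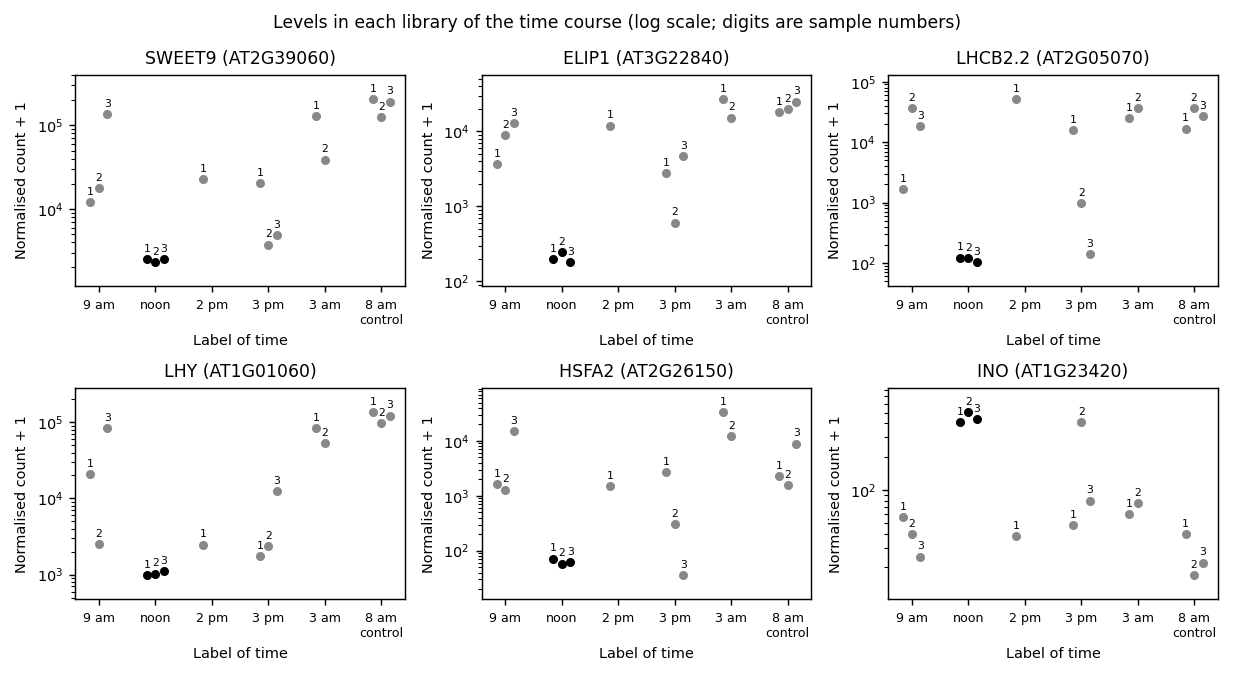
Normalised counts plus 1 (y axis, log scale) of SWEET9, ELIP1, LHCB2.2, LHY, HSFA2 and INO in each library of the time course (x axis, label of time), with the sample number at each point and noon in black. The noon points form a tight group, low for the first 5 genes and high for INO, and the 9 am and 3 pm points spread widely.

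Of 21 heat shock genes tested 10 fell and 0 rose, beside 4.03% and 8.33% of all genes, 7 of the falls held, and the list median was -1.65. Whole chaperone families gave smaller shares. Of 18 genes of the HSP20 family 4 fell and 1 rose, with a median of -0.04, and of 82 DnaJ genes 4 fell and 8 rose, with a median of 0.22. HSFA2, the heat-induced transcription factor, stood at 1638, 1295 and 15111 at 9 am and at 71, 57 and 60 at noon (change -5.65 ± 1.11, adjusted p = 0.00871). HSP17.6A, a small chaperone, stood at 3345, 2801 and 29549 at 9 am and at 230, 279 and 276 at noon (change -4.64 ± 0.84, adjusted p = 0.00556) and was called in every one of the 7 fits. MBF1C, a heat-induced coactivator, stood at 61, 16 and 646 at 9 am and was listed at 0, 0 and 9 at noon. HSP90.2, a cytosolic chaperone, stood at 79, 14 and 912 at 9 am and was listed at 2, 0 and 0 at noon. In all 4 the lowest 9 am library lay above every noon library. HSP101, which dissolves protein aggregates, fell without holding, at 2303, 793 and 31269 against 499, 573 and 521 (change -2.86 ± 0.84, adjusted p = 0.0388). Most of these calls needed sample 3: without it 1 gene of the list fell, without sample 1 there were 13 falls and without sample 2 there were 11. Without noon samples 1, 2 or 3 there were 4, 2 or 4 falls. Summed over the list, levels were 59835, 75327 and 451997 at 9 am and 40899 to 45015 at noon. Of 12 genes of folding in the endoplasmic reticulum 1 rose and 1 fell, the sensor kinase IRE1A and SDF2, and neither held.

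SWEET9 (AT2G39060), the sucrose exporter of nectaries, was lower at noon than in each 9 am library. It stood at 12189, 17905 and 134932 at 9 am and at 2501, 2338 and 2510 at noon, with the lowest 9 am library 4.98-fold above the noon mean. The change was -3.66 ± 0.72 (limma, adjusted p = 0.00887), and it was called in every one of the 7 fits. In the fit of the 6 libraries alone it was not called (limma, adjusted p = 0.0528). CWINV4, the invertase that acts after export, was not called, with 9260, 13012 and 24536 at 9 am and 17573, 15738 and 17786 at noon (change 0.24 ± 0.41, adjusted p = 0.698). SPS1F, which makes sucrose phosphate, was not called either, at 4961, 5576 and 7768 against 3841, 4020 and 3781 (change -0.63 ± 0.21, adjusted p = 0.0542). Of 23 genes of sucrose and sugar transport 1 rose and 2 fell, beside 8.33% and 4.03% of all genes. Their median change of 0.24 was close to the 0.21 of all genes. The rise was STP1, a hexose importer, from 1243, 1363 and 475 to 2391, 2398 and 2405 (change 1.37 ± 0.41, adjusted p = 0.0418), which did not hold. The other fall was SWEET2, a vacuolar sugar transporter, from 847, 458 and 1380 to 292, 323 and 250, which did not hold. The list had 1 fall and no rise without 9 am sample 3.

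Of 16 starch synthesis genes 5 fell and 0 rose, beside 4.03% and 8.33% of all genes. Of 20 starch breakdown genes 2 rose and 0 fell, a share near that of all genes, and their median of 0.20 was close to the 0.21 of all genes. GPT2, which imports glucose phosphate into plastids, was low throughout and held, at 82, 42 and 55 at 9 am and at 0, 4 and 3 at noon (change -4.43 ± 1.11, adjusted p = 0.0207). GBSS1, the granule-bound starch synthase, stood at 953, 3101 and 2574 at 9 am and at 468, 497 and 491 at noon (change -2.02 ± 0.63, adjusted p = 0.0451). APS1 and APL3, subunits of ADP-glucose pyrophosphorylase, fell by 1.14 and 0.93 on the log2 scale. AMY3, an alpha-amylase, stood at 1269, 584 and 317 at 9 am and at 2077, 2005 and 2123 at noon (change 1.74 ± 0.43, adjusted p = 0.0195). GWD1, which phosphorylates starch before it is broken down, stood at 2391, 2460 and 1036 at 9 am and 3624, 3525 and 3863 at noon (change 1.01 ± 0.31, adjusted p = 0.0445). Apart from GPT2 none of them held. Without 9 am sample 3, and with the noon pair as 1 library, no gene of either list was called by limma. Of 9 trehalose phosphate genes 2 fell, TPPF and TPPJ, both trehalose phosphate phosphatases. TPPF stood at 555, 1278 and 2059 at 9 am and at 420, 310 and 353 at noon and was called in every one of the 7 fits, but it did not hold.

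The largest rise by distance to the nearest 9 am library was INO (AT1G23420), a YABBY factor that patterns the ovule in Arabidopsis. It stood at 56, 39 and 24 at 9 am and at 410, 502 and 436 at noon, 7.87-fold above the highest 9 am library (change 3.54 ± 0.78, adjusted p = 0.0132). Of the 8 nectary and YABBY regulators tested 3 rose and 0 fell, beside 8.33% and 4.03% of all genes. Their median change was 0.62 against 0.21 for all genes. ARF6 and ARF8, auxin response factors needed for flower and nectary maturation in Arabidopsis, rose without holding. ARF6 stood at 4871, 3676 and 4463 at 9 am and 6829, 6891 and 6826 at noon (change 0.67 ± 0.16, adjusted p = 0.0182), and ARF8 changed by 0.58 ± 0.17 (adjusted p = 0.0351). PIN6, an auxin transporter tied to nectar secretion in Arabidopsis, was not called, at 229, 97 and 235 against 746, 762 and 724 (adjusted p = 0.0514), although its groups did not overlap. Without 9 am sample 3, without any one noon library or with the noon pair as 1 library, none of the 8 was called. Scaled by median of ratios 1 of the 3 rises was called.

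Genes of the cell wall were among the rises that held, and the 3 given here lost the call in at least 1 of the 7 fits. AT4G14130, xyloglucan endotransglucosylase/hydrolase 15, which cuts and rejoins xyloglucan, stood at 499, 269 and 314 at 9 am and at 2514, 2075 and 2608 at noon (change 2.77 ± 0.68, adjusted p = 0.0189). AT5G64740, cellulose synthase 6 of primary walls, stood at 2742, 4288 and 2670 at 9 am and at 10301, 10045 and 10330 at noon (change 1.70 ± 0.37, adjusted p = 0.0126). AT5G49720, glycosyl hydrolase 9A1, stood at 5218, 5656 and 4987 at 9 am and at 14403, 15165 and 14180 at noon (change 1.46 ± 0.31, adjusted p = 0.0114). Cellulose synthase 6 and glycosyl hydrolase 9A1 were picked after their values were seen. Of 16 genes described as cellulose synthases, also counted after their values were seen, 4 rose and 0 fell, beside 8.33% and 4.03% of all genes. Of those rises 1 held, and the median change was 1.03 against 0.21 for all genes. Among whole families, 5 of 52 pectin enzymes, 2 of 9 xyloglucan endotransglucosylases and 1 of 10 expansins rose and none fell, with median changes of 0.81, 0.85 and 0.71. Of all genes 8.33% rose, so that the shares of the pectin enzymes and expansins are near the background. In the same order of families, the medians were 1.43, 1.13 and 1.7 against 9 am sample 1 alone. They were 0.21, 0.01 and 0.04 against sample 2, and 0.86, 1.37 and 0.69 against sample 3. Summed over the pectin enzymes, levels were 2107723, 1788669 and 866000 at 9 am and 1461935 to 1980992 at noon. Without 9 am sample 3, or without any one noon library, none of these 3 families had a rise. Scaled by median of ratios, 2 pectin enzymes rose and 1 fell.

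Of 23 phenylpropanoid and flavonoid genes 4 rose and 0 fell, beside 8.33% and 4.03% of all genes. Their median change was 0.62 against 0.21 for all genes. CCR1, which commits phenylpropanoids to lignin, stood at 1837, 1483 and 1141 at 9 am and at 4774, 6032 and 4689 at noon (change 1.81 ± 0.39, adjusted p = 0.0124). CAD4, which makes lignin alcohols, stood at 6797, 6138 and 3412 at 9 am and at 13385, 15117 and 13809 at noon (change 1.43 ± 0.35, adjusted p = 0.0193). PAL4, an entry enzyme of the pathway, stood at 3275, 5603 and 4388 at 9 am and at 11397, 13599 and 11104 at noon (change 1.47 ± 0.41, adjusted p = 0.0303). These 3 held and PAL2, the fourth, did not. None of the list was called without 9 am sample 3, and 7 rose without sample 2. Summed over the phenylpropanoid and flavonoid list, levels were 78205, 148126 and 113131 at 9 am and 136030 to 148933 at noon, with overlap. The list median was 0.91, 0.03 and 0.73 against 9 am samples 1, 2 and 3. Of 14 markers of xylem and secondary walls tested 1 rose and 1 fell, beside 8.33% and 4.03% of all genes. Their median change was 1.26, or 2.16, 0.45 and 1.31 against 9 am samples 1, 2 and 3. Their summed level was 9436, 16358 and 10633 at 9 am and 23749 to 26636 at noon, without overlap. In that list LAC4, a lignin laccase, rose without holding, and MYB63, an activator of lignin genes, fell and held at 580, 477 and 389 against 185, 138 and 224 (change -1.41 ± 0.45, adjusted p = 0.048). The cellulose synthases of secondary walls were not called, with adjusted p of 0.0776 for CESA4, 0.0667 for CESA7 and 0.0796 for CESA8. The part of xylem in these rises was not tested.

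Of 6 guard cell genes 2 rose and held and 1 fell, 3 calls beside 12.4% of all genes, and the summed level was 1357 to 1901 at 9 am and 2375 to 2576 at noon. KAT1, a potassium channel of guard cells, stood at 8, 4 and 14 at 9 am and at 29, 55 and 53 at noon (change 2.36 ± 0.59, adjusted p = 0.0207). HT1, a kinase of the response to carbon dioxide, stood at 411, 262 and 223 at 9 am and at 758, 965 and 833 at noon (change 1.55 ± 0.44, adjusted p = 0.0335). GC1, whose promoter marks guard cells in Arabidopsis, fell and stood just outside the limit for holding, at 44, 383 and 248 against 21, 25 and 19. None of 5 phloem genes and none of 16 genes of cuticle and epidermis was called by limma, with medians of 0.52 and 0.51. Their summed levels were 20737 to 47094 at 9 am and 28246 to 28986 at noon for phloem, and 30743 to 85270 against 45368 to 49299 for the cuticle. No marker of these 4 lists in the table was at 0 in all 6 libraries.

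Of 18 jasmonate genes 5 fell and 0 rose, beside 4.03% and 8.33% of all genes, 4 of the falls held, and the list median was -0.29. JAZ1, a repressor of jasmonate responses that jasmonate itself induces, stood at 34940, 10323 and 21452 at 9 am and at 4479, 4297 and 4757 at noon (change -2.13 ± 0.49, adjusted p = 0.0155). JAZ8, another such repressor, stood at 143, 59 and 138 at 9 am and at 11, 3 and 10 at noon (change -3.72 ± 0.89, adjusted p = 0.0181). JAZ2 stood at 735, 128 and 192 at 9 am and at 38, 24 and 28 at noon, and JAR1, which activates jasmonate, fell without holding. MYC3, a transcription factor that the JAZ proteins repress, stood at 4503, 3799 and 4878 at 9 am and at 1734, 1966 and 1695 at noon (change -1.28 ± 0.22, adjusted p = 0.00361). MYC3 was called in every one of the 7 fits and its 9 am libraries were alike, whereas without 9 am sample 3 it was the 1 fall left in the list.

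Of 18 salicylate and pathogen response genes 2 rose and 0 fell, a share near the 8.33% of all genes. Both held, and the list median was -0.26. PAD4, a lipase-like regulator of salicylate defence, stood at 3628, 2970 and 2108 at 9 am and at 7794, 8412 and 7834 at noon (change 1.5 ± 0.34, adjusted p = 0.0156). RBOHD, an oxidase that makes reactive oxygen, stood at 989, 639 and 640 at 9 am and at 2157, 2228 and 2180 at noon (change 1.56 ± 0.47, adjusted p = 0.04). Neither was called without 9 am sample 3 or without any one noon library. Resistance receptors were counted after their values were seen. Of 54 genes described as NBS-LRR or NB-ARC disease resistance proteins 11 rose and 0 fell, beside 8.33% and 4.03% of all genes. Of the rises 4 held, and the median change was 0.65 against 0.21 for all genes. AT5G43470, of the CC-NBS-LRR class, stood at 31, 16 and 15 at 9 am and at 228, 201 and 217 at noon (change 3.39 ± 0.50, adjusted p = 0.00187). AT1G58602 stood at 46, 25 and 14 at 9 am and at 146, 141 and 166 at noon, and AT1G63860 stood at 18, 13 and 6 at 9 am and at 71, 70 and 90 at noon. These 3 were called in every one of the 7 fits. Members of this family resemble each other, and how reads that match several of them were counted is not given in the sources used here.

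Leucine-rich repeat kinases, which include many receptors at the cell surface, had 16 rises and 2 falls among 73 genes, with 4 rises and 1 fall that held and a median change of 0.78. Of all genes 8.33% rose. Scaled by median of ratios 7 rose and 2 fell. The rises numbered 1 without 9 am sample 3, 1, 2 and 0 without noon samples 1, 2 and 3, and 1 with the noon pair as 1 library.

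Other genes with the widest gap to every 9 am library had less familiar roles. AT4G14305, of the peroxisomal Mpv17/PMP22 family, stood at 32, 614 and 172 at 9 am and was listed at 0 in every noon library. AT5G13330, an AP2 factor, stood at 741, 478 and 294 at 9 am and at 18, 10 and 10 at noon (change -5.16 ± 1.35, adjusted p = 0.0246). AT5G43650, a basic helix-loop-helix factor, stood at 471, 184 and 170 at 9 am and at 10, 4 and 8 at noon (change -4.96 ± 0.96, adjusted p = 0.00824). AT4G27030, described as fatty acid desaturase A, stood at 146, 83 and 110 at 9 am and at 5, 2 and 2 at noon (change -4.88 ± 0.91, adjusted p = 0.00648). The last 2 were called in every one of the 7 fits. AT3G18950, a WD40 repeat gene, completed the falls at 136, 73 and 67 against 10, 7 and 0. Among the rises, AT3G16330, an Avr9/Cf-9 rapidly elicited protein, stood at 22, 34 and 14 at 9 am and at 271, 274 and 272 at noon (change 3.57 ± 0.95, adjusted p = 0.0266). AT1G09750, an aspartyl protease, stood at 44, 195 and 64 at 9 am and at 844, 1013 and 766 at noon. AT3G15095, a kinase-like gene, stood at 493, 451 and 295 at 9 am and at 2213, 2094 and 2109 at noon (change 2.40 ± 0.42, adjusted p = 0.00456), called in every one of the 7 fits. AT5G26620, AT5G48460, AT4G10530 and AT2G24600 were further rises of the 12 with the widest gap, with noon means 7.03-fold, 5.36-fold, 5.28-fold and 4.35-fold above the nearest 9 am library.

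The called genes with the largest mean change that did not hold lay within 2-fold of the noon mean in at least 1 of the 9 am libraries. AT1G21360, glycolipid transfer protein 2, stood at 283, 59 and 12 at 9 am and at 388, 403 and 401 at noon (change 2.72 ± 0.82, adjusted p = 0.0421), so that sample 1 was near noon and sample 3 far below. AT1G10640, a pectin lyase-like gene, stood at 8, 79 and 6 at 9 am and at 201, 44 and 142 at noon, and its groups overlapped. AT1G51910, a leucine-rich repeat kinase, stood at 95, 24 and 12 at 9 am and 142, 159 and 204 at noon, AT3G05600 at 35, 7 and 0 against 29, 57 and 41, and AT1G04580 at 37, 8 and 3 against 60, 40 and 70. Among the falls, AT5G63450, a cytochrome P450 of the 94B subfamily, stood at 8148, 1539 and 16641 at 9 am and at 774, 874 and 797 at noon. AT2G28210, alpha carbonic anhydrase 2, stood at 16, 348 and 73 at 9 am and at 8, 7 and 10 at noon. AT3G03180, a Got1/Sft2-like transport protein, was listed at 0, 68 and 74 at 9 am and at 0 in every noon library. In AT3G03180 sample 1 thus had the noon value.

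Noon was also tested against each 9 am library alone, a test added after the data were seen in which the single library is assumed to vary like the other groups. Against sample 1 it called 68 genes (0.554%), against sample 2 it called 363 (2.96%) and against sample 3 it called 3168 (25.8%). Genes called against all 3 numbered 17, of which 16 were lower at noon and 1 was higher, and 16 of the 17 held. The smallest adjusted p of the comparison of group means was that of AT3G55880, an alpha/beta hydrolase, which stood at 653, 595 and 884 at 9 am and at 49, 52 and 64 at noon (change -3.66 ± 0.30, adjusted p = 6.93e-06). ELIP1, BBX32, proton gradient regulation 5 and sigma factor E, given above, were among the 17. The lectin receptor kinases AT1G70130 and AT4G29050 were too, at 781, 687 and 710 against 42, 60 and 80, and at 320, 231 and 156 against 18, 15 and 18. Of 12 lectin receptor kinases, counted after their values were seen, 2 fell and 1 rose, beside 4.03% and 8.33% of all genes. Both falls and the rise held, beside 1.75% and 1.13% of all genes. AT4G23030, a MATE efflux carrier, stood at 1138, 562 and 1418 at 9 am and at 71, 74 and 73 at noon (change -3.72 ± 0.43, adjusted p = 0.000398). AT5G15250, FTSH protease 6, a plastid protease, stood at 169, 86 and 2574 at 9 am and at 16, 10 and 14 at noon. AT2G41290, strictosidine synthase-like 2, stood at 334, 209 and 817 at 9 am and at 11, 25 and 15 at noon. The single rise was AT5G54300, a cotton fiber-like protein, at 460, 547 and 598 at 9 am and at 2754, 2495 and 2796 at noon (change 2.33 ± 0.35, adjusted p = 0.002). The other genes of the 17 were AT2G40095, AT3G16350, AT3G12320, AT5G06980, AT1G78140 and AT3G02910, of which AT3G02910 did not hold. All 17 were called in every one of the 7 fits.

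**Figure D4:**
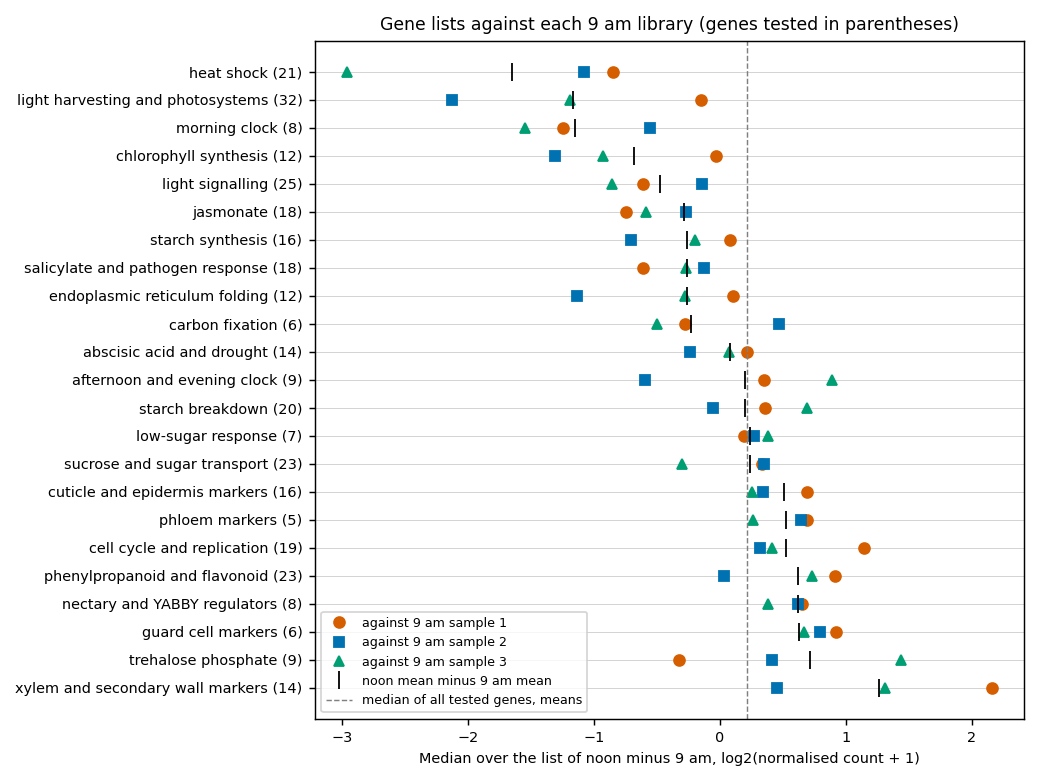
Median over each gene list (y axis, with the number of genes tested) of the noon mean minus 9 am on the log2(normalised count + 1) scale (x axis), against each 9 am library (coloured symbols) and against the 9 am mean (black bar), with the median of all tested genes as a dashed line at 0.21. Heat shock lies farthest below 0 against sample 3, at -2.96, and light harvesting against sample 2, at -2.13.

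The lists with no call in limma were carbon fixation, low-sugar response, abscisic acid and drought, cell cycle and replication, phloem, and cuticle and epidermis. Of 7 low-sugar genes, 14 genes of abscisic acid and drought and 19 of the cell cycle none passed, with median changes of 0.24, 0.08 and 0.52. At an unadjusted p under 0.05, 3 low-sugar genes and 2 cell cycle genes were higher, 2 genes of abscisic acid and drought were higher and 1 lower, and 2 carbon fixation genes were lower. By the same measure 1 phloem gene was higher, and of the cuticle and epidermis 2 were higher and 1 was lower. In the cell cycle list the medians against the 3 single libraries were 1.14, 0.32 and 0.41. RNR1, a subunit of ribonucleotide reductase, came nearest to a call at 215, 397 and 191 against 603, 554 and 578 (adjusted p = 0.0515). The direction of a list median against one 9 am library was not that against another for several lists. The evening clock median was 0.35, -0.60 and 0.89 against samples 1, 2 and 3, and the endoplasmic reticulum median was 0.10, -1.14 and -0.28. Scaled by median of ratios, the list medians shifted by about the shift of all genes. That of abscisic acid and drought changed sign (-0.12), and those of the evening clock and starch breakdown went to 0.00.

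Levels at other times were set beside noon without a test, since the genes were chosen by their noon values. Of the 215 falls that held, 178 were within 2-fold of the noon mean in 3 pm sample 2 (82.8%), 66 in 3 pm sample 1, 59 in 3 pm sample 3 and 3 in the 2 pm library (1.4%). In the 3 am libraries 9 and 5 were, and in the 8 am libraries, the controls of the ant treatments, 11, 14 and 15 were. Of the 138 rises that held, 132 were within 2-fold in 3 pm sample 2 (95.7%), 81 in the 2 pm library and 17 and 34 in the other 3 pm libraries. In the 3 am libraries 42 (30.4%) and 79 (57.2%) of these rises were. In the 8 am libraries 41 (29.7%), 77 (55.8%) and 43 (31.2%) were, so that part of the rises stood near the noon level at 8 am too. The library nearest to noon was thus 3 pm sample 2, and the library taken at 2 pm was far from it for the falls. ELIP1 stood at 11914 in the 2 pm library, at 2791, 607 and 4715 at 3 pm and at 27047 and 15223 at 3 am. SWEET9 stood at 22682 in the 2 pm library and at 20512, 3754 and 4862 at 3 pm. INO stood at 37 in the 2 pm library, at 47, 410 and 79 at 3 pm and at 39, 16 and 21 at 8 am. In all 3 genes the 2 pm library was on the side of 9 am, although it was taken after noon by its label.

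**Figure D5:**
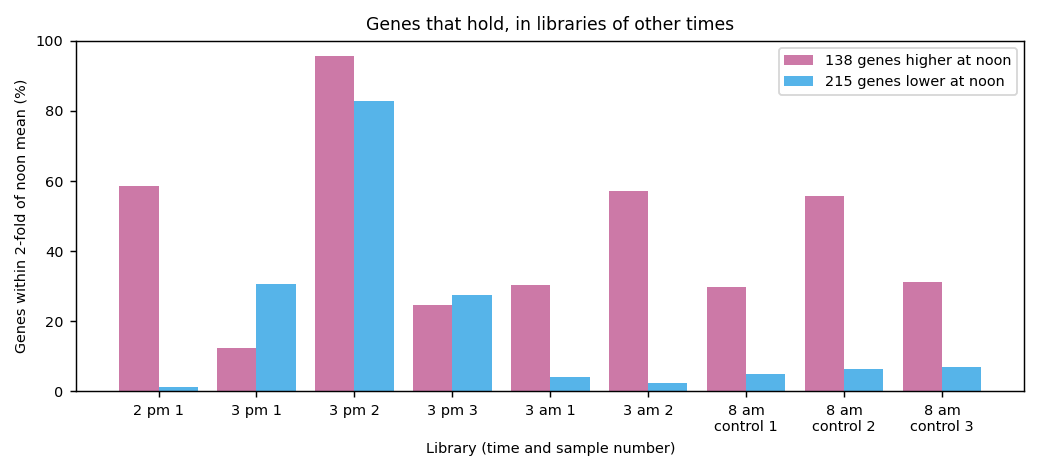
Share (y axis, percent) of the 138 rises and 215 falls that held whose level lay within 2-fold of the noon mean in each library of another time (x axis). Only 3 pm sample 2 is above 80% for both, and the 2 pm library holds 58.7% of the rises and 1.4% of the falls.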

How the data were processed

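Per the labels' protocols, RNA of nectaries pooled over plants was sequenced as paired-end TruSeq libraries. The values the authors deposited are normalised counts, treated here as a score, scaled by an unnamed method and rounded. How they were aligned and annotated, and whether strand was used, is not stated. Whole reads could not be recovered from the low values, so depth is unknown. Each Arabidopsis locus is listed once, and close paralogs of the acacia may share a row. No sequences or positions were used.

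Values were tested as log2(value + 1), which understates changes of low genes. Genes averaging 10 or more over the 24 libraries were kept (12264 tested, 386 left out). All 10 groups had a coefficient in the same linear model, fitted with the trend option of limma 3.58.1 in R 4.3.3 (residual degrees of freedom 14, prior 3.657). The 2-sided p-values were adjusted over all genes tested (Benjamini-Hochberg, threshold 0.05). The shared spread is larger than that of noon and smaller than that of 9 am. The fit was tested on simulated data in which each gene had the same spread in every group. That test does not cover the unequal spread of 9 am and noon. The comparison, the 23 gene lists (463 loci, 350 in the table), the 21 families and the rules were chosen with earlier results of these data known. Named were the 12 rises and 12 falls farthest from the nearest 9 am library among genes that hold, the 5 rises and 5 falls with the largest mean change among called genes that do not, up to 4 called members per list by smallest adjusted p, and 10 fixed genes. One of these rises and the group it belongs to are not reported here. Other members were named after their values were seen. Alternatives left out each library, averaged near-identical libraries, fitted the 6 libraries alone with and without a replicate block, weighted libraries, and changed the pseudocount, filter, scaling and distances. Sample numbers did not pair the libraries.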

Additional observations from a re-analysis of the deposited data

How the results depend on the processing

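Leaving out 1 library changed the number of called genes from 1516 to between 140 and 2595, the rises from 1022 to between 25 and 1799, and the falls from 494 to between 115 and 796. The genes that held changed from 353 to between 115 and 794, of which 16 to 415 were rises and 99 to 386 were falls. With each near-identical pair averaged as 1 library 95 genes were called (11 rises, 84 falls) and 79 held (7 rises, 72 falls). With only the noon pair averaged, an alternative chosen after seeing the data, 189 were called (51 rises, 138 falls) and 138 held (26 rises, 112 falls). In a fit of the 6 libraries alone 626 were called (386 rises, 240 falls), and 390 (176 rises, 214 falls) once sample numbers entered that fit as a replicate block. No label ties equal numbers together, and deviations of same-numbered libraries correlated at -0.1467, -0.1002 and -0.0245. Weights per library left 634 rises, and median-of-ratios scaling left 345 rises, 69 of them holding. Quantile normalisation gave 784 falls. Tested against a change of 2-fold, 12 genes were called, all falls that held, and 0 rises. Against 9 am sample 1 alone 68 were called (17 rises, 51 falls), against sample 2 alone 363 (158 and 205) and against sample 3 alone 3168 (2304 and 864). At a distance of 1.5-fold 783 genes held (437 rises, 346 falls), and at 4-fold 79 did (14 rises, 65 falls). The cause of these differences was not tested. The pseudocount of 10 and the filters changed no count of called genes by over 1.5 times. Of 191 named or listed genes, 3 changed direction: GI (AT1G22770), which lay between -0.26 (without 9 am sample 1) and 0.86 when 1 library was left out and at -1.10 against sample 2 alone, CWINV4 (AT2G36190), which lay between -0.07 (without sample 1) and 0.63 and at -0.53 against sample 3 alone, and PSAG (AT1G55670), at 0.06 against sample 1 alone. None changed direction under either scaling. Since the reads behind a unit are unknown, no limit from depth can be given for genes listed at 0.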

Other observations

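Carriers of nitrogen and phosphate that were lower at noon than in each 9 am library were picked after their values were seen. AT4G25760, glutamine dumper 2, which promotes amino acid export in Arabidopsis, stood at 2527, 3186 and 3744 at 9 am and at 237, 260 and 220 at noon (change -3.70 ± 0.57, limma, adjusted p = 0.00228). Its relative AT5G57685, glutamine dumper 3, ran the other way, at 101, 161 and 127 against 379, 445 and 407 (change 1.68 ± 0.40, adjusted p = 0.0181). AT5G23810, amino acid permease 7, stood at 763, 1781 and 1981 at 9 am and at 168, 179 and 232 at noon. AT1G32450, nitrate transporter 1.5, which loads nitrate into the xylem in Arabidopsis roots, stood at 1908, 1046 and 2257 at 9 am and at 346, 256 and 337 at noon. AT3G23430, phosphate 1, a phosphate exporter, stood at 409, 413 and 1176 at 9 am and at 110, 113 and 90 at noon. AT4G25760, AT5G23810, AT1G32450 and AT3G23430 were called in every one of the 7 fits. Over all 101 amino acid and peptide transporters tested, 8 fell and 3 rose, beside 4.03% and 8.33% of all genes. Their median change was 0.05 against 0.21 for all genes.

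Of 10 MAP kinase kinase kinases, counted after their values were seen, 3 fell and 0 rose, beside 4.03% and 8.33% of all genes. All 3 falls held, beside 1.75% of all genes. AT5G67080, mitogen-activated protein kinase kinase kinase 19, stood at 5045, 1113 and 1411 at 9 am and at 177, 99 and 171 at noon (change -3.78 ± 0.62, adjusted p = 0.00318). AT5G23060, the calcium sensing receptor of thylakoids, stood at 290, 1354 and 3902 at 9 am and at 45, 39 and 52 at noon (change -4.65 ± 0.71, adjusted p = 0.002). Of 31 NAC transcription factors 3 fell and 2 rose, beside 4.03% and 8.33% of all genes. The 3 falls and 1 of the rises held, beside 1.75% and 1.13% of all genes. AT1G52890, NAC domain containing protein 19, stood at 7764, 4499 and 7251 at 9 am and at 2116, 2538 and 2082 at noon (change -1.5 ± 0.26, adjusted p = 0.00412). AT5G67080, AT5G23060 and AT1G52890 were called in every one of the 7 fits.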
